A study of Oryzias latipes with 7 samples.

Results

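The group described here holds the probe sets of medaka ovarian follicles whose signal stood high on the array of 14 h before spawning and on no other. A probe set is a set of short array probes that read one transcript. Members were chosen on their measured values: the mean log2 intensity over the 7 arrays had to lie above the 25th percentile of all probe sets, the 7 values of a probe set were sorted, and the largest gap between neighbouring values had to be at least 2 on the log2 scale (4-fold) with only the 14 h array above it. Of 63698 probe sets, 47773 passed the filter on the mean level and 115 met the whole rule, which is 0.241% of those kept. Because the rule read all 7 arrays, the height of the 14 h peak and the low values elsewhere are given as a description, without a test.

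Medaka (Oryzias latipes) is a small teleost that spawns daily at about the onset of light. The females were kept at 27 °C with 14 h of light and 10 h of dark, and the follicles of the 2 largest size classes were taken from their ovaries. Each of the 7 arrays carried RNA pooled from 100 follicles, taken 47, 35, 32, 23, 14, 8 or 2 h before spawning, and no time point was replicated. No treatment, strain or genotype is named in the labels. Each value below is therefore 1 measurement, and no pair of arrays gives the spread between replicates. The pair closest in labelled time is 35 h and 32 h, where the log2 difference stayed under 1.02 in 95% of kept probe sets. Among kept probe sets as dim at 35 h as most members, that limit was 1.39. These differences hold the change over time and the spread between arrays together.

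As background, a follicle consists of the oocyte and the granulosa and theca cells around it. Late in vitellogenesis these cells make estradiol while the oocyte takes up yolk protein. A surge of luteinizing hormone then switches the granulosa cells to a progestin that makes the oocyte resume meiosis, and the same surge starts the events by which the follicle wall opens at ovulation. Genes that luteinizing hormone switches on in granulosa cells are known from several vertebrates to be active for a few hours only, which makes a transcript seen at a single sampling time a kind of profile to look for in this tissue. Whether the members are such genes was not tested. None of the probe set identifiers was found in the RefSeq gene table used here, so genes, cell types and sequences are not named, and the labelled tissue could not be checked against its markers. In RNA of whole follicles, more cells of a type and more RNA per cell cannot be told apart.

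The time of the array concerned differs between the deposited sources. The array filed as 14 h in its own file stands under 32 h in the series table, and the array filed as 32 h stands there under 14 h. The labels of the per-array files were used. Under the series table's times the 115 members are the probe sets high at 32 h only, all 115 being shared, and another 20 probe sets, none of them a member, are high at 14 h only. The table also places the 23 h array under 35 h, the 35 h array under 2 h and the 2 h array under 23 h. The array that stands apart is the same under both sources, but every statement below on early and late times, on the mean of 47, 35 and 32 h and on successive arrays holds for the times of the per-array files alone.

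By its median intensity and its correlations the array did not stand apart as a whole. Neither measure can show that the array was free of faults. Its median intensity was 682, within the range of 599 (8 h) to 703 (47 h) over the 7 arrays. Across kept probe sets its log2 values correlated at r = 0.957 with the 23 h array and at 0.842 to 0.898 with the other 5. The 8 h array, its other neighbour in time, was at 0.892, below 47 h (0.898) and 32 h (0.896). Leaving the 115 members out gave 0.964 with 23 h and 0.847 to 0.906 with the other 5. Probe sets are the points of these correlations, and they do not replicate each other. The correlations changed little when all members were left out, so they say little on a small subset. The intensities had been through RMA, with settings not given, so alike medians may be a product of the processing. By the same rule 180 probe sets were high at 8 h only, 660 at 2 h only, and 7 to 20 at each of the 4 earlier times. The mirror image was rarer at every time. At 14 h only, 31 probe sets (0.0649% of those kept) were low. Low at a single other time were 112 at 8 h, 247 at 2 h and 0 to 4 at each of the 4 earlier times. The gap of the 31 had a median of 2.38 and a highest value of 4.14 on the log2 scale.

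At 14 h most members reached moderate to high levels. Their 14 h intensity ran from 497 through a median of 4819 to 19194. In log2 terms the median member, at 12.23, lay above 74.6% of the kept probe sets of that array. The lowest member lay above 28.2% of them and the highest above 96.2%. At 47 h the same probe sets ran from an intensity of 22.8 through a median of 58.1 to 2116, and the median member lay above 1.73% of the kept probe sets. Median intensities were 68.5 at 35 h, 128 at 32 h, 91.1 at 23 h, 166 at 8 h and finally 118 at 2 h. Apart from the 14 h array, the members were mostly among the dimmest probe sets kept. The rule favours this, since the filter's mean includes 14 h and a high peak lets a probe set pass that is dim elsewhere.

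The gap between the 14 h array and the next highest ranged from 4.13-fold to 135-fold, with a median of 14.3-fold (3.84 on the log2 scale). It was at least 8-fold in 74 members, 16-fold in 54, 32-fold in 37 and 64-fold in 15. The largest gap belonged to OLAT0001S00005561, with intensities of 72.2 at 47 h, 44.1 at 35 h, 74.3 at 32 h, 44.6 at 23 h, 10044 at 14 h, 56.2 at 8 h and finally 66.7 at 2 h. Its 6 other values all lay below the intensity of 75.8 that corresponds to the filter. The highest 14 h level belonged to OLAT0001S00030981, with intensities of 117 at 47 h, 152 at 35 h, 242 at 32 h, 124 at 23 h, 19194 at 14 h, 521 at 8 h and finally 301 at 2 h. It stood 36.9-fold above its 8 h value, and its 8, 2 and 32 h values all exceeded those at 47, 35 and 23 h.

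**Figure D1:**
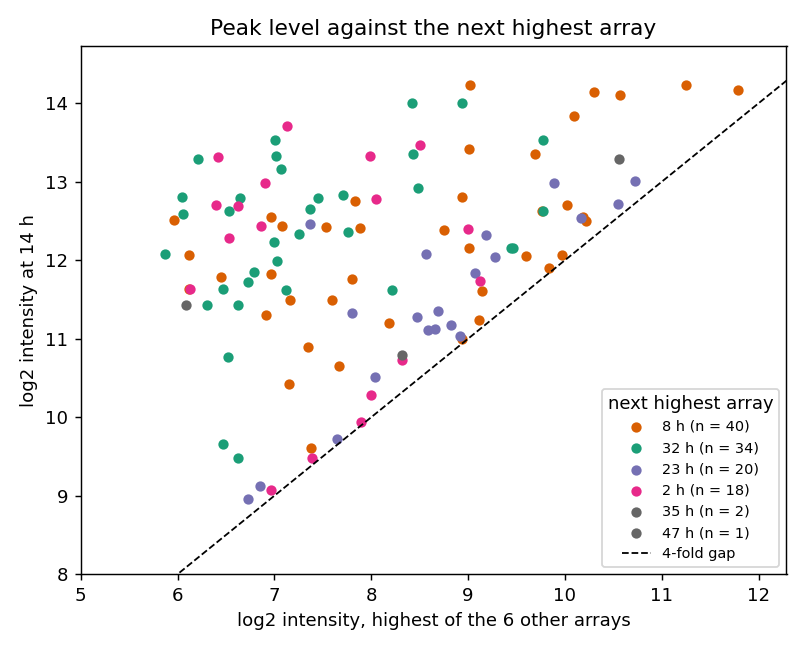
Log2 intensity at 14 h (vertical axis) against the highest log2 intensity among the 6 other arrays (horizontal axis) for the 115 probe sets, 1 point each, coloured by the array that stood next; the dashed line marks the 4-fold gap of the rule. Points with 23 h as the next array (20) lie mostly near the line, while those with 32 h next (34) lie mostly far above it, with a median gap of 5.07 on the log2 scale.

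The levels below the gap were not alike. Of the 115 members, 9 lay at or below the filter value of 6.24 on the log2 scale in all 6 other arrays, 33 lay above it in all 6, and the other 73 in some. The median gap was 6.21 in the 9 and 2.76 in the 33. In 16 members the 6 other arrays stayed within a 2-fold range, and in 57 they spread over 4-fold or more. The flattest member had intensities of 1505 at 47 h, 1323 at 35 h, 1067 at 32 h, 1432 at 23 h, 1338 at 8 h and finally 1318 at 2 h, against 10040 at 14 h. The most uneven one had 69.5 at 47 h, 35.2 at 35 h, 41.2 at 32 h, 431 at 23 h, 6310 at 14 h, 868 at 8 h and finally 23.5 at 2 h. The first is a lone excursion from a constant level, and the second a course that spans 23 to 8 h.

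The array that stood next below 14 h divided the members. It was 8 h in 40 (34.8%), 32 h in 34 (29.6%), 23 h in 20 (17.4%), 2 h in 18 (15.7%), 35 h in 2 and 47 h in 1. Over all 5865 kept probe sets with their highest value at 14 h, the next array was 23 h in 48.3%, 8 h in 15.4%, 2 h in 12.2% and 32 h in 6.17%. The rule acts on this measure, since a probe set that is also high at 23 h has a small gap and drops out. Leaving out the 23 h array gave 212 probe sets under the same rule and leaving out the 8 h array 209, of which 111 and 113 were members. Leaving out 47, 35, 32 or 2 h instead gave 130, 128, 122 and 135, as any omission also changes the filter's mean and the gaps. The arrays on either side of 14 h thus each held back more probe sets than any other array. High levels at 14 h together with a neighbour, 4-fold above the other 5 arrays, were found in 45 probe sets with 23 h and in 65 with 8 h, against 6 with 2 h and 0 with 32, 35 or 47 h. Pairs of arrays without 14 h are not given here, so these counts compare the partners of 14 h alone.

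**Figure D2:**
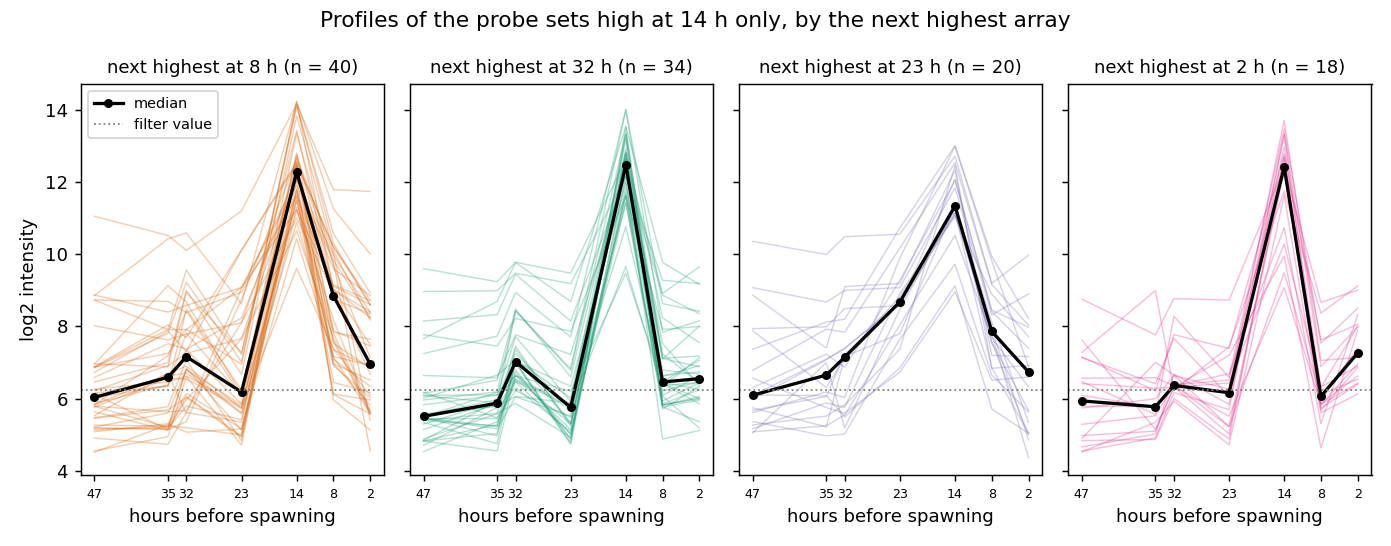
Log2 intensity over hours before spawning for the members with 8 h, 32 h, 23 h or 2 h as the next highest array (thin lines, 1 per probe set; thick line, median; dotted line, filter value of 6.24). The median course of the 23 h class climbs through 8.67 at 23 h to 11.34 at 14 h, whereas the 32 h class lies at 5.75 at 23 h and 12.48 at 14 h.

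To set out the course around the peak, the members were split at a gap of 3, after the values were seen. Neither side was of one form. In the 41 members with a smaller gap the median log2 level was 7.23 at 32 h, 8.62 at 23 h, 11.35 at 14 h, 8.41 at 8 h and finally 7.96 at 2 h. In the 74 with a larger gap it was 6.83 at 32 h, 5.79 at 23 h, 12.44 at 14 h, 7.01 at 8 h and finally 6.66 at 2 h. The median course was thus higher at 23 h than at 32 h with the smaller gaps and lower with the larger ones. At 23 h, 18 of the 41 members with smaller gaps and 3 of the 74 with larger ones were at least 2-fold above their mean of 47, 35 and 32 h. Over all kept probe sets the share was 7.64%, above the 4.05% of the 74. The flattest member, described above, is among the 41 at a gap of 2.74. The gap is the 14 h level less the highest other value, so a smaller gap leaves more room for a high 23 h value. The gap and this count are not independent, and the difference at 23 h is partly built into the split. The brightest at 14 h among those with 23 h next had intensities of 165 at 47 h, 278 at 35 h, 294 at 32 h, 1690 at 23 h, 8226 at 14 h, 984 at 8 h and finally 297 at 2 h. The brightest with 32 h next had 152 at 47 h, 212 at 35 h, 491 at 32 h, 208 at 23 h, 16427 at 14 h, 396 at 8 h and finally 342 at 2 h. The first was close to its 32 h value again at 2 h. The order of the arrays just below 14 h was fixed in both by how they were chosen.

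Before and after the peak, the members were compared with their own mean at 47, 35 and 32 h. At 23 h, 21 of 115 members (18.3%) were higher by at least 2-fold and 5 were lower by as much, where 7.64% and 5.94% of all kept probe sets were. At 8 h, 48 (41.7%) were higher and 4 lower, where 10.2% and 13.0% of all kept probe sets were. At 2 h, 26 (22.6%) were higher and 5 lower, where 12.0% and 13.3% were. The median difference from the earlier mean was -0.05 at 23 h, 5.74 at 14 h, 0.79 at 8 h and finally 0.50 at 2 h on the log2 scale. The median member was thus level with its earlier mean at 23 h and lay above it at 8 h and at 2 h. With an offset of 64 added to the intensities, which damps differences among dim probe sets, the share at least 2-fold higher became 22.5% at 8 h and 5.80% at 2 h, of the 138 probe sets then in the group, where it was 8.72% and 10.6% of all kept probe sets. The share at 2 h then lay below that of all kept probe sets.

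The members also differed between the 35 h and 32 h arrays, which resembled each other over the array as a whole. At 32 h, 45 of 115 members (39.1%) exceeded their 35 h value by at least 2-fold and 3 fell short of it by as much, where 2.61% and 2.65% of all kept probe sets were. The median difference was 0.67 on the log2 scale in the members and 0.00 over all kept probe sets. Dim probe sets varied more between these arrays, with 95% of log2 differences under 1.39 in place of 1.02. Of the kept probe sets, 5311 had a 35 h log2 level of at most 7.24, the upper quartile of the members. Among these, 9.89% were higher at 32 h by at least 2-fold, against 38 of the 86 members (44.2%) in that range. The 2 sets are not fully matched in level. Members could pass the filter through their 14 h value while dimmer elsewhere, and the limit was set on 1 of the 2 arrays compared. Of the 45 members, 42 were among the 74 with the larger gap and 3 among the 41 with the smaller. The 74 were also dimmer at 35 h, with a median log2 level of 5.79 against 7.09 in the 41. Gap and level were not separated here. The share moved to 13.0% of 138 probe sets with the offset of 64, where it was 1.64% over all kept probe sets, and to 24.6% of the 228 probe sets found without the filter.

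From 32 h to 23 h the direction turned. At 23 h, 46 members (40.0%) were at least 2-fold lower than at 32 h and 24 higher, where 8.18% and 10.4% of all kept probe sets were. At 8 h, 42 (36.5%) were at least 2-fold higher than at 23 h and 7 lower, where 11.5% and 17.4% were. At 2 h, 35 (30.4%) were at least 2-fold lower than at 8 h and 7 higher, where 12.4% and 15.0% were. Between 47 h and 35 h, 17 were higher at 35 h and 3 lower, where 5.47% and 7.14% were. With 14 h left aside, more members were thus higher than lower at 35 h, 32 h and 8 h against the array before. At 23 h and 2 h more were lower. Except for 32 h against 35 h, each step also crosses between the array-number series described below. In those steps time and series cannot be told apart. Neighbouring steps share an array, so a high value at 32 h or at 8 h enters both steps beside it. The steps are therefore not separate changes. The kept probe sets were not matched to the members in level here, and dim probe sets varied more between the 35 h and 32 h arrays. How much of these shares goes with low level was not tested.

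**Figure D3:**
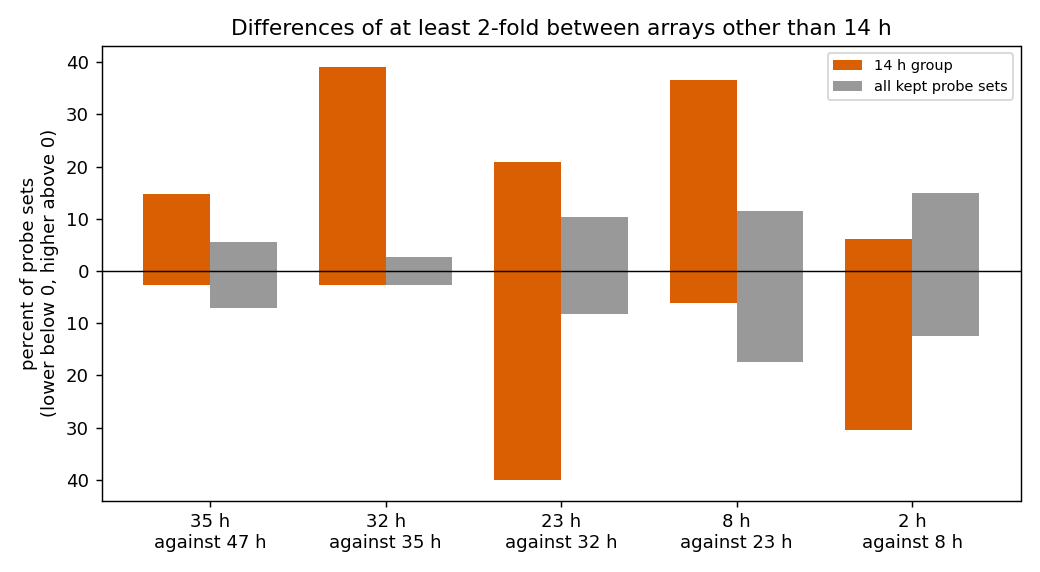
Percent of probe sets that differed by at least 2-fold between successive arrays when 14 h is left out, for the 115 members (orange) and all 47773 kept probe sets (grey); bars above 0 are higher at the later time, bars below 0 lower. The members' bar for 32 h against 35 h reaches 39.1%, against 2.61% of all kept probe sets.

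The order of the 6 other arrays showed the same set of 3 in front. The 8 h array was among the highest 3 in 94 of 115 members, the 32 h array in 86 and the 2 h array in 82, against 43 for 23 h, 22 for 47 h and 18 for 35 h. In 50 members (43.5%) the 32, 8 and 2 h values all exceeded the 47, 35 and 23 h values. This arrangement was met in 4.28% of all kept probe sets. It was chosen after the counts of the members were seen, and the kept probe sets were not matched in level, so the 2 shares are a description only. Under the series table's times the 32, 8 and 2 h arrays stand at 14, 8 and 23 h. Those are the times that follow the peak array, which stands there at 32 h. The 47, 35 and 23 h arrays stand there at 47, 2 and 35 h. Which source is right was not tested. The 47 h array was the lowest of the 6 in 49 members. Across the 115 members, the 14 h level went with the 32 h level at a Spearman rho of 0.48, with 2 h at 0.39, 8 h at 0.30, 47 h at 0.19, 35 h at 0.18 and 23 h at 0.06. These rhos are across probe sets that share arrays, and the rule limits both values, so they are given as a description.

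Array numbers have 6 digits at 47, 23, 14 and 2 h, whereas those at 35, 32 and 8 h have 8 digits, and the labels do not explain the 2 series. The next array below 14 h was of the 8-digit series in 76 members (66.1%), against 27.3% of all kept probe sets with their highest value at 14 h. The rule bears on this contrast, since it drops probe sets also high at 23 h, an array of the 6-digit series. Of the kept probe sets with their highest value at 14 h, 48.3% had 23 h next. Within the 6-digit series alone the 14 h value exceeded the next by a median of 4.97, and against the 8-digit series by 3.96, on the log2 scale. The rule sets a gap of at least 2 to the arrays of either series. The higher values at 32 h than at 35 h lie within the 8-digit series. The other successive steps, with 14 h left aside, cross between the series. In each of them more members were higher in the 8-digit array, namely at 35 h against 47 h, 32 h against 23 h, 8 h against 23 h and 8 h against 2 h. Arrays that are not successive could go the other way. The 6-digit array of 2 h had a mean rank of 2.97 among the 6 other arrays, a low rank being a high value. The 8-digit array of 35 h had a mean rank of 4.38. The mean of 47, 35 and 32 h holds arrays of both series. Whether the series affects the values was not tested.

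The identifiers, which the rule did not read, were unevenly distributed. They are of 2 kinds, OLAT0001S and K_OLAT0000S, each followed by a running number whose meaning is not given in the sources used here. Of the members, 17 of 115 (14.8%) were of the K_ kind, against 35.5% of all kept probe sets. Of these 17, 14 belonged to the 41 members with a gap under 3 and 3 to the 74 with a larger gap. In the 8 h group 53.9% and in the 2 h group 45.5% were of the K_ kind.

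Among the 98 members of the OLAT0001S kind, 23 bore numbers from 30318 to 30993. In the window from 30000 to 30999, chosen after the values were seen, they were 3.20% of the 719 kept probe sets, against 0.318% of all 30833 kept probe sets of the OLAT0001S kind and at most 8 members in any other window of 1000. The same window held 2 probe sets of the 8 h group and 5 of the 2 h group. Its 23 members had a median gap of 5.17 on the log2 scale, against 3.53 in the other 92, and 12 had 32 h as the next array. Their median log2 level was 5.45 at 47 h, 5.78 at 35 h, 7.01 at 32 h, 5.70 at 23 h, 12.51 at 14 h, 6.61 at 8 h and finally 6.51 at 2 h. In 11 of the 23 the 32 h value was at least 2-fold above that of 35 h, where 45 of all 115 members (39.1%) and 2.61% of all kept probe sets were. Of the 696 kept probe sets of the window that were no members, 103 (14.8%) had their highest value at 14 h, against 12.3% of all kept probe sets. The window share was 12.7% of the group at a gap of 1.5 and without the 23 h array, and 9.09% at a gap of 1.

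**Figure D4:**
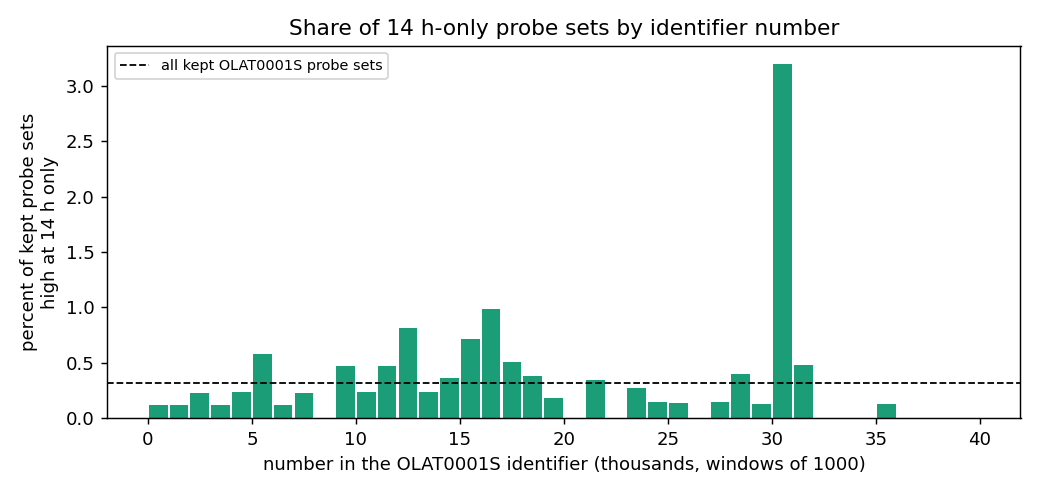
Percent of kept probe sets that were high at 14 h only, in windows of 1000 running numbers of the OLAT0001S identifiers; the dashed line marks the 0.318% of all kept OLAT0001S probe sets. The window from 30000 to 30999 reaches 3.20%.

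Among the members, 2 pairs had consecutive numbers, and their 14 h log2 levels were 12.40 and 11.31 in the first pair and 13.83 and 11.49 in the second. The number of such pairs to expect from an even distribution was not worked out. The largest difference within a pair over the 7 arrays was 3.62 and 2.93 on the log2 scale. All 115 members were read by the full 6 probes, as were 99.3% of kept probe sets. Values of single probes were not used here.

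Set beside the other single-time groups, the 14 h group had a median gap of 3.84, the 8 h group of 2.66 and the 2 h group of 2.82 on the log2 scale. The median log2 intensity at the peak was 12.23, 11.97 and 12.04 in the same order. The median level over the other arrays was 6.51, 7.67 and 7.77. A gap of at least 16-fold was seen in 47.0%, 8.33% and 19.7%. Higher values at 32 h than at 35 h by at least 2-fold were seen in 39.1% of the 14 h group, 8.89% of the 8 h group and 4.24% of the 2 h group. They were seen in 2.61% of all kept probe sets and in 9.89% of those at or below the members' upper quartile at 35 h. The 14 h group was the dimmest of the 3 groups over the other arrays, and the groups were not matched in level. The groups were formed by the same rule on the same arrays, and their differences were not tested.

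At the edge of the rule the values ran on without a break. The 3 members with the smallest gaps had gaps of 2.05, 2.06 and 2.07 on the log2 scale, with 14 h levels of 9.94, 11.00 and 11.90. The 3 probe sets just outside had gaps of 1.95, 1.94 and 1.93. A further 6 kept probe sets stood at least 4-fold above all other arrays at 14 h but had a larger gap lower down. For example, 1 of the 6 had log2 levels of 5.21 at 47 h, 4.91 at 35 h, 5.31 at 32 h, 8.44 at 23 h, 12.38 at 14 h, 9.41 at 8 h and finally 4.31 at 2 h.

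The filter on the mean level cut through the group. Without it, 228 probe sets met the gap rule, so that 113 were left out for a low mean. Their median log2 level was 9.48 at 14 h and 4.54 to 5.18 at the other 6 times, with a median gap of 3.91. The 3 members just above the filter had gaps of 6.21, 5.50 and 4.99, and the 3 probe sets just below it had gaps of 6.08, 6.39 and 6.41, with 14 h levels of 12.15 to 12.44. The next array among the 113 was 8 h in 38, 23 h in 22, 32 h in 21, 2 h in 21, 35 h in 8 and 47 h in 3. The window from 30000 to 30999 held 31 of them. With the filter at the 50th percentile, 8 members remained in the group, since a probe set that is dim in 6 of 7 arrays rarely has a high mean.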

How the data were processed

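The values are intensities on a linear scale, which the authors deposited in 1 file per array and made with RMA, per the submitters' processing notes. Neither the RMA version nor its settings nor a detection call was found in the labels or headers. The series table deposited beside them repeats these intensities within 0.001 but files 5 of the 7 arrays under another time. Intensities were put on the log2 scale, arrays were timed by their stage labels, and the filter (mean log2 above 6.24) and gap rule were applied in Python 3.11.15 with pandas 2.3.3 and numpy 2.4.6. With 1 array per time point nothing was tested, and precision is limited by how few arrays there are. The description of the 2 h sample says 5 h, which changes no value here. The members and all lists and splits were chosen with earlier results of these data known. Named probe sets are those with the largest gap and the highest 14 h level; planned marker and gene lists needed symbols and were not used. Of 63698 identifiers, 0 matched the RefSeq gene table. Alternatives were other filters, gaps, scalings, offsets, leaving out each other array and the series table's times. Shares outside the exact 95% binomial interval of the value reported are listed with the alternatives. Members share the same arrays and are not independent, so the interval only sorts these values and tests nothing.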

Additional observations from a re-analysis of the deposited data

How the results depend on the processing

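Quantile normalization and centring on the median or the 75th percentile gave 110, 110 and 113 members, of which 110, 109 and 112 were shared with the 115. None of the 7 shares then changed by more than 5.53 percentage points. Offsets of 16 and 64 gave 121 and 138. No paired analysis was possible because each time point has 1 array.

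Shares below are of the group found under each setting, which overlaps the main one. The 10th percentile as filter gave 224 members, with 27.2% at least 2-fold above the 47, 35 and 32 h mean at 8 h, 13.4% at 2 h, and 25% higher at 32 h than at 35 h. No filter gave 228, with 26.8%, 13.2% and 24.6%. The 50th percentile gave 8, with 12.5% higher at 2 h, 12.5% at 32 h against 35 h and 25% with 8 h next. A gap of 1 gave 297, with 28.3% having 23 h next, 28.3% higher at 23 h, 18.9% higher at 32 h than at 35 h and 9.09% in the identifier window. A gap of 1.5 gave 181, with 27.1% and 12.7% for the last 2 measures. A gap of 3 gave 74, with 6.76% having 23 h next, 4.05% higher at 23 h and 56.8% higher at 32 h than at 35 h. The offset of 16 gave 13.2% higher at 2 h, and that of 64 gave 5.80% at 2 h, 22.5% at 8 h and 13.0% at 32 h against 35 h.

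Leaving out 1 other array gave 122 to 212 members, most without the 23 h array and 209 without the 8 h array. The share with 23 h next was 16.4% to 37.8% and with 8 h next 33.8% to 46.7%. The shares above the early mean were 14.8% to 27.3% at 23 h, 28.5% to 54.1% at 8 h and 14.1% to 34.4% at 2 h. The highest at 8 h and 2 h came without the 32 h array, where the early mean was of 47 and 35 h alone. Without 47 h or 35 h the early mean likewise lacked that array. Higher at 32 h than at 35 h were 28.2% to 38.5%, and in the identifier window 12.7% to 21.1%. The times of the series table gave 20 other probe sets, with 0% having 23 h next, 10% having 8 h next, 0% higher at 23 h, 5% at 8 h, 10% at 2 h, 0% at 32 h against 35 h and 0% in the window. The gaps of OLAT0001S00005561 and OLAT0001S00030981 then became -7.08 and -6.31, with another array taken as 14 h. The early mean and the array taken as 14 h thus differ between settings. Beyond this and the number of probe sets and arrays each setting leaves, the cause of these changes was not tested. The shares for 32 h against 35 h and for the window were added after the data were seen.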
